A study of Mus musculus with 4 samples.

Results

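The Fas, TRAIL and TNF death pathway was described by 8 genes taken by symbol from the 31053 genes counted in each library: the ligands Fasl, Tnfsf10 (TRAIL), Tnf and Lta, the receptors Fas and Tnfrsf1a, the initiator caspase Casp8 and its inhibitor Cflar. All 8 symbols were found once in every library. The question was which liver cells held these transcripts and how their levels differed between libraries.

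Ligands of this family are trimeric proteins, displayed on killer lymphocytes or secreted, that cluster receptors on a target cell. Clustered Fas and TRAIL receptors recruit the adaptor Fadd and Caspase-8, whose cleavage of downstream caspases leads to apoptosis, while the Caspase-8-like protein cFLIP, made from Cflar, blocks that step. TNF receptor 1 mainly signals through NF-kappaB to inflammation and survival and turns to death when that arm fails, and T cell hepatitis caused by concanavalin A is a classic setting in which Fas ligand and TNF injure the liver.

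All mice were C57BL/6 and 8 to 10 weeks old. The Naïve library came from untreated mice. The other 3 libraries came from mice given concanavalin A (ConA), a plant lectin that activates T cells: vehicle followed in ConA+Veh, TCDD in ConA+TCDD and FICZ in ConA+FICZ, and cells were taken 24 h after ConA. TCDD and FICZ are both ligands of the aryl hydrocarbon receptor (AhR), a ligand-activated transcription factor. The study's methods give ConA injection into a vein and TCDD at 10 µg/kg or corn oil 1 h later. The sources used here do not give the dose and time of FICZ or the ConA dose of its library. The number of mice behind each library is not given either. The TCDD and FICZ libraries are therefore set side by side and not compared with each other. The cells were liver mononuclear cells, so hepatocytes, the cells injured in this model, were mostly absent (197 in ConA+FICZ and 1 to 20 in the other libraries).

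The libraries held 2086 cells in Naïve, 2779 in ConA+Veh, 1880 in ConA+TCDD and 2555 in ConA+FICZ, with 5952445 to 19252211 unique molecular identifiers (UMIs, one for each captured RNA molecule) in total. Median UMIs per T cell were 2752 in Naïve and 6811 to 9077 after ConA. Cell classes were assigned by the number of distinct marker genes with a UMI, for example at least 3 of 7 T cell genes, and 72.1% (ConA+TCDD) to 90.3% (Naïve) of cells met 1 class. Every set of 4 values here and below runs from Naïve through ConA+Veh and ConA+TCDD to ConA+FICZ. T cells numbered 495, 759, 617 and 519, and natural killer (NK) cells 120, 206, 169 and 171. B cells numbered 1075, 815, 367 and 756, and mononuclear phagocytes (monocytes, macrophages and dendritic cells) 69, 201, 39 and 190. NK cells were required to have no Cd3d, Cd3e or Cd3g UMI and T cells at least 1, and Ncr1, an NK receptor gene, stood at 304 to 634 CPM in NK cells. The Kupffer cell genes Clec4f, Vsig4 and Timd4 had 0 UMIs in the phagocytes of Naïve and ConA+FICZ and at most 11 each in the other libraries. Other genes of the phagocyte list were present in them. C1qa stood at 626, 850, 297 and 1262 CPM, Csf1r at 617, 210, 130 and 315, and Ccr2 at 561, 227, 215 and 330. The phagocytes are therefore not called Kupffer cells here, and how many of them were Kupffer cells was not tested. Each pair of libraries shared 4 to 15 cell barcodes.

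Levels are given in CPM (counts of a gene in all cells of a class per 1000000 UMIs of those cells), with an exact 95% Poisson interval where one is printed. A difference between libraries is the log2 ratio of CPM with an exact 95% binomial interval. With 1 library per condition, these intervals cover counting error only, no difference has a replicate check, and a ratio compares libraries. The comparisons of ConA+TCDD and ConA+FICZ share the ConA+Veh library. CPM follows a gene's share of a cell's RNA, and T cells of the ConA libraries held more UMIs, so UMIs per cell are given where they turn a direction. Fewer cells with a transcript and less of it per cell cannot be told apart in a summed level.

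The 8 genes lie on 5 chromosomes of the mm10 build (GRCm38) and all are protein coding. Tnf (chr17:35199381-35202007) and Lta (chr17:35203165-35205351), both on the minus strand, are neighbours. Cflar (chr1:58711508-58758884) and Casp8 (chr1:58795374-58847503) also lie close together, both on the plus strand, while Fasl (chr1:161780689-161788495, minus strand) is farther along that chromosome. Fas is at chr19:34290666-34327772 (plus), Tnfsf10 at chr3:27317028-27342427 (plus) and Tnfrsf1a at chr6:125349362-125362484 (plus). The promoters of the 3 lymphocyte ligands whose T cell levels the results turn on, and of Fas, are printed because the treatments act through AhR and T cell activation acts in part through NFAT. Each is the 250 bases before the RefSeq start on GRCm38.p6, written 5′ to 3′ on the gene's strand. Capitals mark GCGTG, the core recognized by AhR with its partner, or GGAAA, the core recognized by NFAT and by other factors, in either orientation.
Fas (chr19:34290409-34290658, plus strand): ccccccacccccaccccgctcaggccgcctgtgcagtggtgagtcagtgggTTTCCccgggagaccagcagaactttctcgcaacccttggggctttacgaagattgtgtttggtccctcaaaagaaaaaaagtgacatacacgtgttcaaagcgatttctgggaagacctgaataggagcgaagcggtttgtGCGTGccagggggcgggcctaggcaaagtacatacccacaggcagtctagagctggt
Fasl (chr1:161788496-161788745, minus strand): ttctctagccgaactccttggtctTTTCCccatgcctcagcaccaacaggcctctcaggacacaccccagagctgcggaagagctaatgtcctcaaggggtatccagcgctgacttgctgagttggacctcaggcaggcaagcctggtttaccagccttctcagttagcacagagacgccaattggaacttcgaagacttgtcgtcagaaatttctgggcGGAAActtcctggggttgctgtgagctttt
Tnf (chr17:35202008-35202257, minus strand): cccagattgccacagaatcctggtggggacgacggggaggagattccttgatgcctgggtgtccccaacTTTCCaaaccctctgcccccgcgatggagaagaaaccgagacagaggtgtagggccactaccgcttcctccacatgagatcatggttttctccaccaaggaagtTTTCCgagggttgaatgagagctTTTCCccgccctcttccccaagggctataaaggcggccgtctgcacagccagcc
Lta (chr17:35205352-35205601, minus strand): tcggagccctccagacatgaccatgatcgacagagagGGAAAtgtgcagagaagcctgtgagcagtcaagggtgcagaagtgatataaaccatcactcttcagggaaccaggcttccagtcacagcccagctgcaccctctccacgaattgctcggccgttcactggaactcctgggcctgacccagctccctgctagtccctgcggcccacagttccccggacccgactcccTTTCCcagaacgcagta

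All 8 genes had a promoter in the RefSeq table. GCGTG was present in 1 of the 8, Fas, with its first base 57 bases before the start, and in 28.2% of all 32851 promoters of this length. GGAAA was present in 6 of 8 (3 matches in Tnf, 2 each in Fasl and Lta, 1 each in Fas, Casp8 and Tnfsf10) and in 55.6% of all promoters. No match of one motif overlapped a match of the other in the printed sequences, and a match is only a run of bases.

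Fasl, the Fas ligand of cytotoxic lymphocytes, was a transcript of NK and T cells. In NK cells it stood at 350 CPM (279 to 434), 167 (139 to 200), 174 (141 to 213) and 150 (119 to 188). In T cells it stood at 74.7 CPM (62.8 to 88.3), 16.7 (14.1 to 19.6), 14.1 (11.4 to 17.4) and 11.8 (9.36 to 14.8). Naïve was thus the highest library in both classes, with no overlap of its interval with those of the 3 ConA libraries. The log2 ratio of ConA+Veh over Naïve was -2.16 (-2.51 to -1.82) in T cells and -1.07 (-1.48 to -0.65) in NK cells. For ConA+TCDD over ConA+Veh it was -0.24 (-0.64 to 0.15) in T cells and 0.06 (-0.34 to 0.46) in NK cells, both within counting error. For ConA+FICZ over ConA+Veh it was -0.49 (-0.91 to -0.09) in T cells and -0.15 (-0.58 to 0.27) in NK cells. The T cell value included 0 with 1 more marker per class (-0.37, -0.83 to 0.08), with Leiden clusters as classes (-0.34, -0.74 to 0.06) and under cell quality filters (-0.40, -0.82 to 0.02). Most other classes lacked Fasl: B cells held 0, 2, 0 and 1 UMIs, and the 0 in Naïve allows up to 1.15 CPM. Neutrophils held 0 UMIs in every library, which allows up to 4.70 CPM in the 251 cells of ConA+FICZ and 12.1 CPM in the 97 of ConA+Veh.

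**Figure D1:**
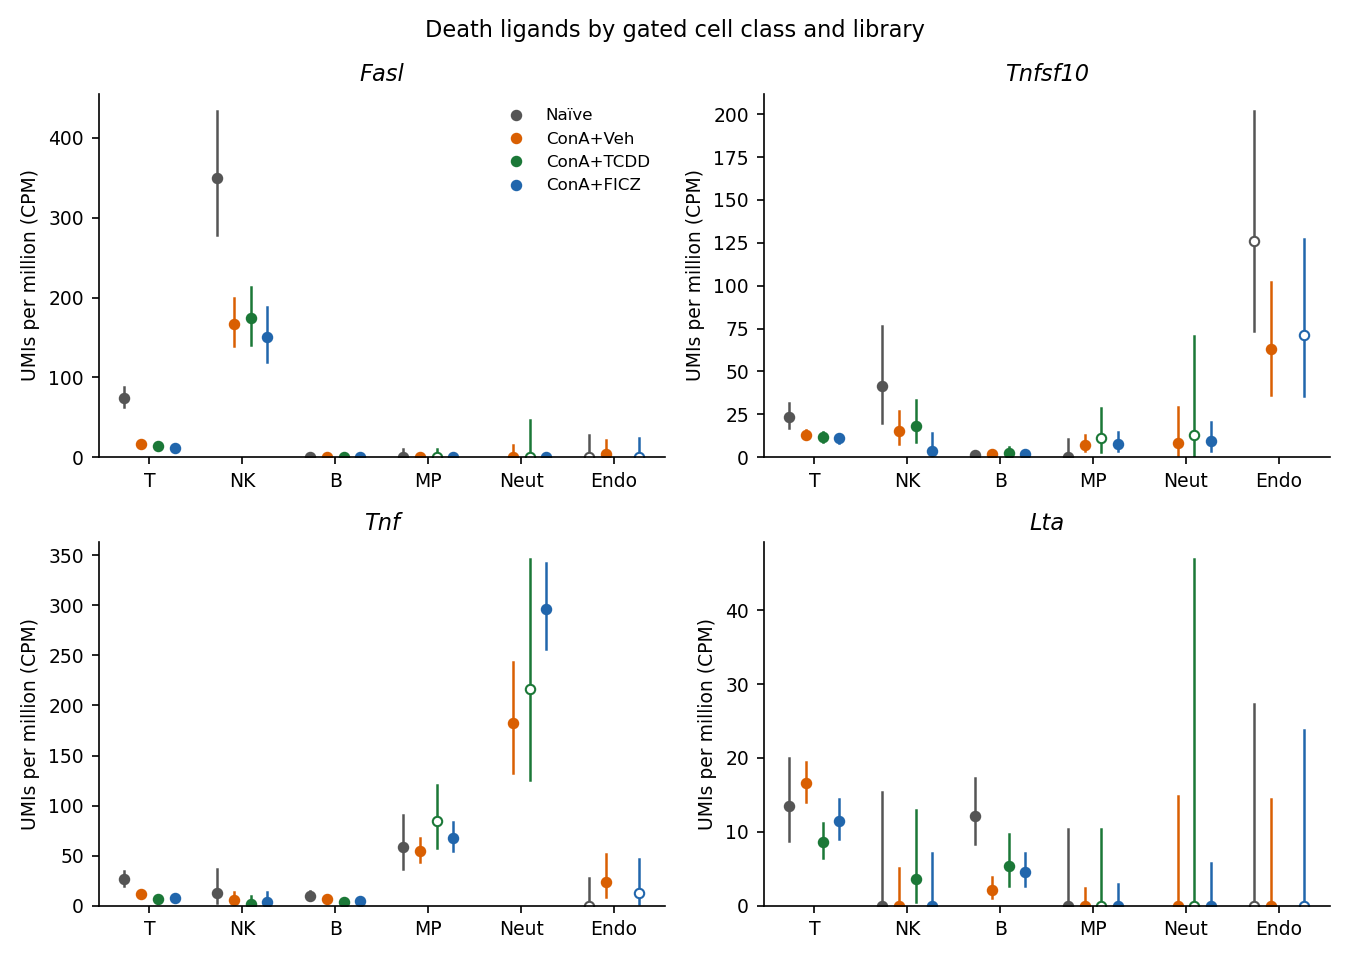
CPM of the 4 ligands by cell class (horizontal axis) and library (colour) on a linear vertical axis. Points are summed levels, bars are 95% Poisson intervals, classes need at least 30 cells, and open circles mark classes with fewer than 50 cells. Of the classes drawn, Fasl is highest in NK cells (150 to 350 CPM) and Lta in T cells, which lie close to B cells in Naïve. Tnfsf10 is highest in endothelial cells and Tnf in neutrophils, in the libraries where these classes are drawn.

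The size of the Fasl difference depended on which T cells were counted and how. Cells with a UMI of the proliferation gene Mki67 numbered 17, 410, 223 and 159 among the T cells, and Fasl in ConA+Veh was 8.94 CPM (6.72 to 11.7) in them and 34.7 (27.9 to 42.7) in T cells without it. Among T cells without Mki67, Fasl was 82.8, 34.7, 18.2 and 18.0 CPM, so that both AhR ligand libraries lay under ConA+Veh. These ratios, chosen after seeing the data, were -1.25 (-1.66 to -0.86) for ConA+Veh over Naïve. Over ConA+Veh they were -0.93 (-1.46 to -0.41) for ConA+TCDD and -0.95 (-1.43 to -0.47) for ConA+FICZ. Averaging over cells instead of summing UMIs gave -1.24 for ConA+Veh over Naïve in T cells. UMIs per T cell were 0.279, 0.190, 0.146 and 0.150, and gave -0.56. With each T cell thinned to 1000 UMIs, 9.24% (6.80 to 12.2), 3.05% (1.95 to 4.55), 1.80% (0.904 to 3.20) and 2.53% (1.35 to 4.29) had a Fasl UMI, against 18.0%, 13.4%, 11.7% and 11.8% unthinned and 0 to 0.245% of B cells. The direction of ConA+Veh under Naïve held in each of these, and the size did not.

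Fasl was unevenly spread among T cells. In CD8 T cells, which carried Cd8a or Cd8b1 and no Cd4, it stood at 21.1, 5.12, 5.07 and 1.88 CPM, and in CD4 T cells at 42.7, 19.1, 12.9 and 7.64 CPM. T cells with neither or both co-receptors held 138, 42.1, 30.6 and 34.9 CPM, the most of these 3 groups in every library. This group is not a cell type. Cd4 itself stood at 65.0, 41.7, 29.5 and 33.6 CPM in all T cells. The group's median in ConA+Veh was 5402 UMIs, against 10440 in CD8 T cells. It can thus hold T cells whose co-receptor was missed, and how many was not tested. All 3 groups were lower in ConA+Veh than in Naïve, with log2 ratios of -2.04 (-3.01 to -1.02), -1.16 (-2.13 to -0.14) and -1.71 (-2.13 to -1.29). For ConA+FICZ over ConA+Veh the ratio was -1.45 (-2.90 to -0.21) in CD8 T cells, from 7 against 26 UMIs, and -1.32 (-2.67 to -0.13) in CD4 T cells, from 8 against 26. T cells that also carried NK markers (28, 71, 39 and 38 cells) held 235, 77.1, 56.6 and 58.0 CPM of Fasl. The summed level of the 9 NK markers over all T cells was 277, 147, 95.9 and 106 CPM, with none of the 9 at 0 in any library. It was highest in Naïve, as Fasl was, and its part in the Fasl ratios was not tested.

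Tnfsf10 encodes TRAIL, the ligand of the TRAIL death receptor. Among classes with at least 30 cells its highest level was in endothelial cells, at 126 CPM (17 UMIs, 42 cells) in Naïve, 63.0 (16 UMIs, 63 cells) in ConA+Veh and 71.0 (11 UMIs, 40 cells) in ConA+FICZ. The ratio of ConA+Veh over Naïve there, -1.0 (-2.08 to 0.08), included 0, and the 7 endothelial cells of ConA+TCDD were too few. NK cells held 41.7, 15.2, 18.0 and 3.86 CPM, from 10, 11, 10 and 2 UMIs, and their ConA+Veh over Naïve ratio was -1.46 (-2.83 to -0.06). It included 0 with 1 more marker per class (-1.48, -3.02 to 0.10), with Leiden classes (-0.75, -2.18 to 0.89) and without the cell richest in Tnfsf10 (-1.24, -2.83 to 0.42). T cells held 23.3, 13.1, 11.6 and 10.9 CPM, and 49.4% to 56.5% of all Tnfsf10 UMIs of a library. Naïve was again the highest, with -0.83 (-1.35 to -0.29) for ConA+Veh over Naïve. The direction turned in UMIs per T cell, 0.0869, 0.149, 0.120 and 0.139, where the log2 ratio was 0.78. By co-receptor, the CPM ratio of ConA+Veh over Naïve was -1.69 (-2.52 to -0.87) in T cells with neither or both. It included 0 in CD8 T cells (0.22, -0.78 to 1.40) and in CD4 T cells (-0.58, -2.16 to 1.26). In T cells the ratios of ConA+TCDD and ConA+FICZ over ConA+Veh, -0.17 (-0.62 to 0.26) and -0.26 (-0.71 to 0.18), included 0. In CD8 T cells, 8.31 CPM in ConA+FICZ against 14.8 in ConA+Veh gave -0.83 (-1.48 to -0.21). B cells held 1.15 to 2.45 CPM.

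Tnf, the inflammatory cytokine made early by activated myeloid and T cells, was highest in neutrophils among classes with at least 30 cells. It stood at 182 CPM (133 to 243) in the 97 neutrophils of ConA+Veh, 216 (126 to 346) in the 38 of ConA+TCDD and 296 (256 to 342) in the 251 of ConA+FICZ. The ratio of ConA+FICZ over ConA+Veh was 0.70 (0.23 to 1.21), and that of ConA+TCDD, 0.25 (-0.65 to 1.08), included 0. The 23 neutrophils of Naïve held 575 CPM, from 28 UMIs, and entered no ratio. Mononuclear phagocytes held 58.9, 54.4, 84.7 (39 cells) and 68.0 CPM, and all 3 of their ratios included 0. The ratio of ConA+TCDD over ConA+Veh, 0.64 (-0.01 to 1.26), excluded 0 under 4 alternatives, with values of 0.66 to 0.83, the highest of them with Leiden classes (0.83, 0.26 to 1.38). The same ratio still included 0 with 1 more marker per class and without the cell richest in Tnf of each library. In ConA+TCDD that cell held 9 of the 30 Tnf UMIs of the 39 phagocytes.

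In T cells Tnf was lower in each ConA library than in Naïve: 26.5 CPM (19.6 to 35.1), 11.7 (9.53 to 14.2), 6.44 (4.62 to 8.73) and 8.05 (6.03 to 10.5). The ratio of ConA+Veh over Naïve was -1.18 (-1.69 to -0.66), but UMIs per T cell, 0.0990, 0.133, 0.0665 and 0.102, were higher in ConA+Veh, with a log2 ratio of 0.43. Over ConA+Veh, ConA+TCDD gave -0.86 (-1.42 to -0.33) and ConA+FICZ gave -0.54 (-1.05 to -0.05). The TCDD value was -0.33 (-0.81 to 0.14) with Leiden classes, -0.77 (-1.70 to 0.13) among T cells without Mki67 and -0.28 when averaged over cells. The FICZ value was 0.01 (-0.72 to 0.75) without Mki67 cells, -0.41 (-0.95 to 0.11) under quality filters and -0.29 (-0.83 to 0.25) without the 2% of cells with the most UMIs. Neither difference of all T cells therefore held under every alternative. The CD8 T cells held 19.7, 10.6, 2.39 and 5.63 CPM, from 14, 54, 8 and 21 UMIs. Both AhR ligand libraries were below ConA+Veh there, at -2.15 (-3.44 to -1.07) for ConA+TCDD and -0.92 (-1.72 to -0.17) for ConA+FICZ. The CD8 T cells without Mki67 held 20.7, 8.38, 0.975 and 7.45 CPM, from 14, 9, 1 and 12 UMIs. In them ConA+FICZ thus lay close to ConA+Veh. The alternatives above were not run on CD8 T cells. CD4 T cells held 19.9, 7.33, 9.18 and 15.3 CPM, and none of their 3 intervals excluded 0. NK cells had 1 to 4 Tnf UMIs per library, although they were the richest class in Fasl.

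The classes that held the most Tnf UMIs differed between libraries. T cells held 31%, 28.3%, 16.3% and 12.9% of all Tnf UMIs, and neutrophils 17.7%, 12.6%, 6.75% and 46.0%. In ConA+FICZ the neutrophil share went with 251 neutrophils, the most of any library. In ConA+TCDD, 26 cells that carried granulocyte progenitor markers, alone or with phagocyte markers, held 44.0% of Tnf UMIs (111 of 252), and 38 such cells in ConA+Veh held 7.84%. A single one of these 26 cells held 40 UMIs.

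**Figure D2:**
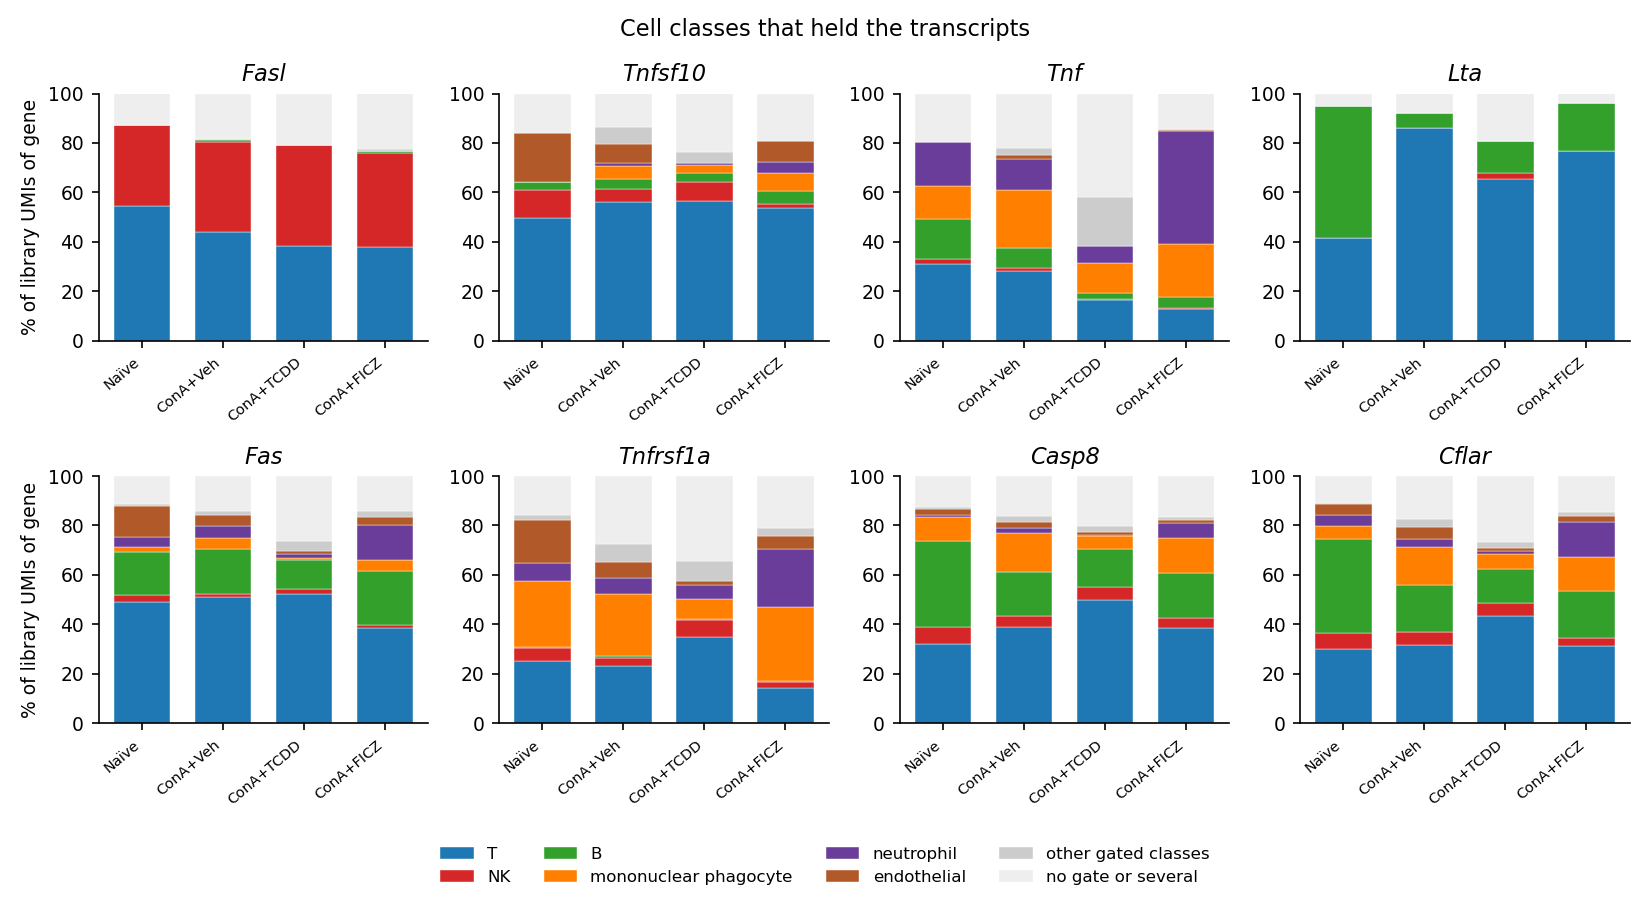
Percent of each library's UMIs of a member (vertical axis) by the cell class that held them (colour), one stacked bar per library and member. T and NK cells hold most Fasl, T cells most Lta after ConA (65.5% to 86.1%), and the neutrophil share of Tnf runs from 6.75% in ConA+TCDD to 46.0% in ConA+FICZ.

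Lta encodes lymphotoxin alpha, a TNF relative made by lymphocytes that binds the TNF receptors. It was a T cell transcript after ConA and was shared with B cells in Naïve. T cells held 13.5 CPM (25 UMIs), 16.6 (14.0 to 19.5), 8.63 (6.50 to 11.2) and 11.5 (9.09 to 14.4), so ConA+Veh was the highest library. The ratios over ConA+Veh were -0.94 (-1.42 to -0.48) for ConA+TCDD and -0.52 (-0.94 to -0.11) for ConA+FICZ, and that of ConA+Veh over Naïve, 0.29 (-0.33 to 0.97), included 0 and was 1.90 in UMIs per cell. The FICZ value was -0.19 (-0.66 to 0.27) without the 2% of cells with the most UMIs and -0.21 (-0.78 to 0.37) without Mki67 cells. A single T cell of ConA+Veh held 15 of its 143 Lta UMIs. T cells with neither or both co-receptors held 78 of those 143 UMIs, and their levels were 16.6, 35.7, 9.84 and 17.7 CPM. There ConA+Veh exceeded Naïve, with a ratio of 1.11 (0.25 to 2.08). The other 2 ConA libraries lay below ConA+Veh, ConA+TCDD by a ratio of -1.86 (-2.67 to -1.12) and ConA+FICZ by -1.01 (-1.65 to -0.40). CD8 T cells held 7.03, 8.26, 7.46 and 8.57 CPM, and the intervals of their 3 ratios all included 0.

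In B cells Lta was lowest in ConA+Veh. They held 12.2 CPM in Naïve and 2.14, 5.39 and 4.53 in the ConA libraries, from 32, 10, 11 and 19 UMIs. With 10 UMIs in 815 cells of ConA+Veh and 32 in 1075 of Naïve, UMIs per cell differed less than CPM did. The ratio of CPM of ConA+Veh over Naïve was -2.51 (-3.70 to -1.45). That of ConA+TCDD over ConA+Veh, 1.33 (-0.04 to 2.72), excluded 0 with 1 more marker per class (1.40, 0.02 to 2.79) and under quality filters (1.49, 0.08 to 2.94). B cells held 53.3% of Lta UMIs in Naïve and 6.02% to 19.2% after ConA. They made up 51.5% of the cells in Naïve and 29.3%, 19.5% and 29.6% in the ConA libraries. The part of cell number and depth in this share was not tested. NK cells held 2 Lta UMIs in ConA+TCDD and 0 in the other libraries, which allows up to 4.14 CPM in ConA+Veh. Phagocytes, neutrophils and endothelial cells held 0 in every library.

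Fas, the receptor of Fas ligand, was spread over many classes and lay in a different order from its ligand. Neutrophils held 68.7, 76.3 and 84.7 CPM in ConA+Veh, ConA+TCDD and ConA+FICZ, and endothelial cells 88.9, 67.0 and 77.5 in Naïve, ConA+Veh and ConA+FICZ. No ratio in either class excluded 0. NK cells, the richest in Fasl, had 3, 5, 7 and 4 Fas UMIs. T cells held 26.0 CPM (19.2 to 34.5), 21.7 (18.7 to 25.0), 29.0 (25.0 to 33.5) and 22.2 (18.7 to 26.1). Only ConA+TCDD over ConA+Veh excluded 0 in T cells, at 0.42 (0.12 to 0.72), and UMIs per T cell, 0.0970 in Naïve and 0.246 in ConA+Veh, gave 1.35 for ConA+Veh over Naïve in place of -0.26 (-0.73 to 0.23). The ConA+TCDD value included 0 with 1 more marker per class (0.29, -0.03 to 0.60) and without cells lacking Cd52 (0.28, -0.05 to 0.60). In B cells Fas was lowest in Naïve, at 6.50, 14.1, 20.1 and 20 CPM from 17, 66, 41 and 84 UMIs. The ratio of ConA+Veh over Naïve was 1.12 (0.34 to 1.98), 2.11 when averaged over cells and 2.36 in UMIs per cell, and that of ConA+FICZ over ConA+Veh was 0.50 (0.02 to 0.99), which reached 0 without the B cell richest in Fas. For ConA+TCDD over ConA+Veh it was 0.51 (-0.09 to 1.09), and 0.96 (0.46 to 1.47) with Leiden classes.

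Few T cells carried UMIs of both Fas and Fasl: 4, 11, 23 and 11 cells, or 0.808% (0.221 to 2.06), 1.45% (0.726 to 2.58), 3.73% (2.38 to 5.54) and 2.12% (1.06 to 3.76). The number was highest in ConA+TCDD. Detection of either gene depends on the UMIs of a cell. T cells with a Fas UMI had a median of 14447 UMIs in ConA+Veh against 6716 in those without, and 9398.5 against 6030 in ConA+TCDD. Of T cells with a Fas UMI, 10.0%, 7.38%, 16.2% and 10.0% had a Fasl UMI. Of those without, 18.7%, 14.9%, 10.3% and 12.2% had one, so only ConA+TCDD had the higher share with Fas. The part of depth in this was not tested.

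Tnfrsf1a encodes TNF receptor 1. Among classes with at least 30 cells its highest levels were in endothelial and myeloid cells. T cells, at lower levels, held 25.2%, 23.1%, 34.7% and 14.2% of its UMIs. NK cells held 66.7, 41.4, 57.5 and 46.3 CPM, and no ratio in them excluded 0. Endothelial cells of Naïve held 400 CPM (301 to 522), those of ConA+Veh 244 (187 to 313) and those of ConA+FICZ 297 (217 to 396), with -0.71 (-1.26 to -0.16) for ConA+Veh over Naïve. Neutrophils held 242, 318 and 350 CPM in the 3 ConA libraries, with 0.53 (0.11 to 0.96) for ConA+FICZ over ConA+Veh, or 0.38 (-0.01 to 0.80) with Leiden classes. Mononuclear phagocytes held 236 (188 to 292), 157 (138 to 178), 105 (73.6 to 144, 39 cells) and 221 (196 to 248). Their ConA+Veh over Naïve ratio was -0.58 (-0.95 to -0.21), but -0.32 (-0.67 to 0.05) with 1 more marker per class and -0.03 in UMIs per cell. Over ConA+Veh it was -0.59 (-1.13 to -0.09) for ConA+TCDD, or -0.42 (-0.91 to 0.03) with Leiden classes, and 0.49 (0.24 to 0.75) for ConA+FICZ. T cells held 43.3, 25.3, 24.5 and 20.3 CPM, with -0.78 (-1.15 to -0.39) for ConA+Veh over Naïve. That ratio was -0.42 (-0.92 to 0.08) without Mki67 cells and turned to 0.83 in UMIs per cell. By co-receptor, the same ratio of CPM included 0 in CD8 T cells, at 0.27 (-0.56 to 1.22). It was -0.99 (-1.76 to -0.18) in CD4 T cells and -0.99 (-1.57 to -0.41) in T cells with neither or both. The summed neutrophil marker level in phagocytes was lowest in Naïve (213 CPM against 580 in ConA+Veh and 638 in ConA+FICZ), and its part in the phagocyte ratios of any member was not tested. B cells nearly lacked the transcript, with 2, 6, 1 and 3 UMIs, while holding Fas. The 197 hepatocytes of ConA+FICZ held 80.6 CPM (53.1 to 117). Their median was 951 UMIs per cell with a median mitochondrial share of 0%, and whether they were intact cells was not tested.

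**Figure D3:**
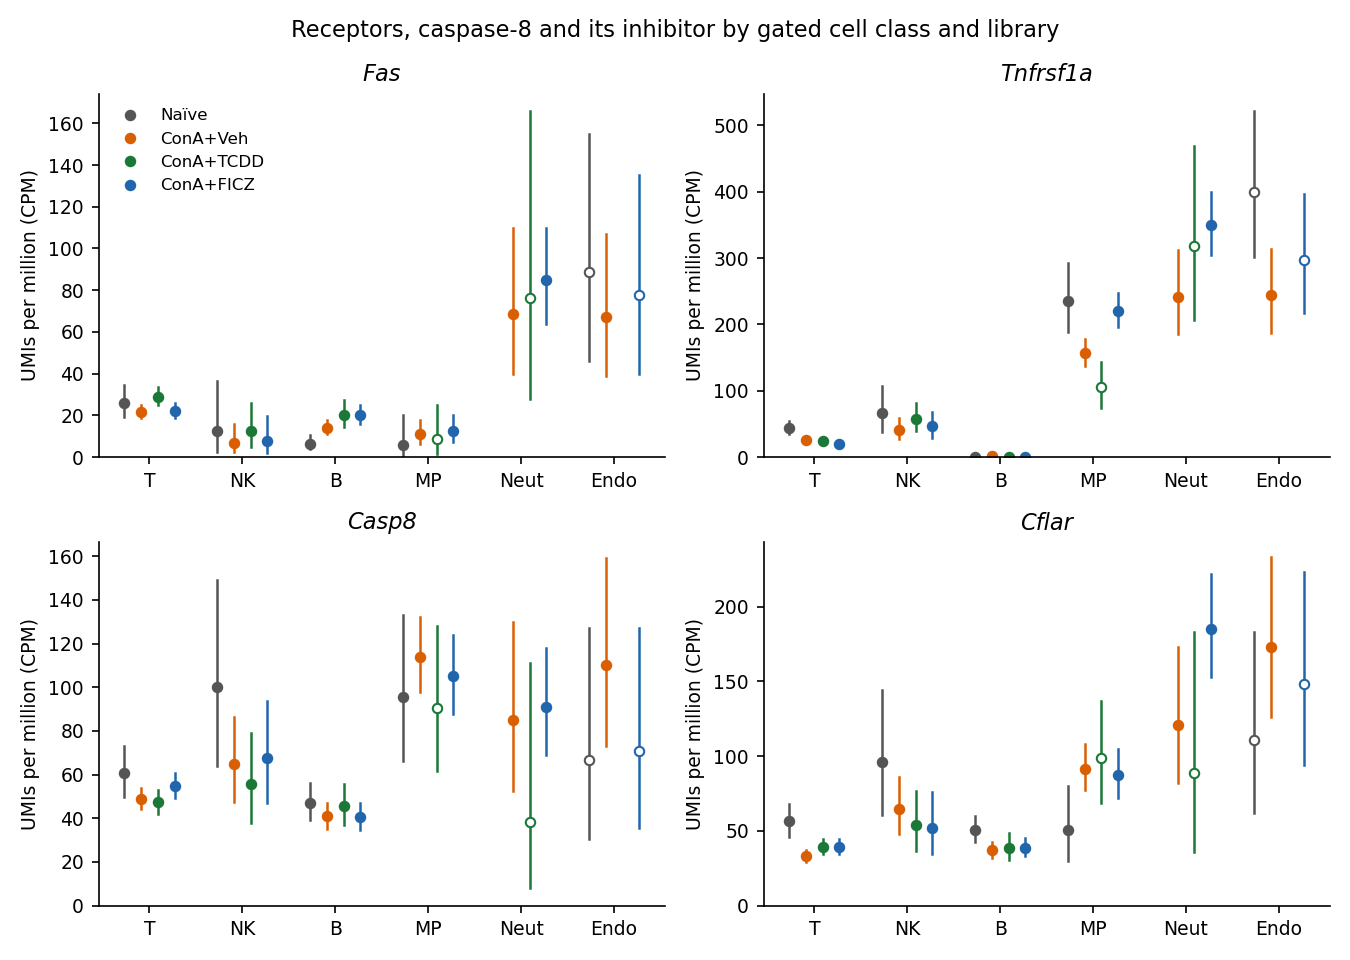
CPM of Fas, Tnfrsf1a, Casp8 and Cflar by cell class (horizontal axis) and library (colour), drawn with the same points, bars and cell minimum as the plot of the ligands. Tnfrsf1a reaches 400 CPM in endothelial cells and is near 0 in B cells, whereas Casp8 and Cflar are detected in every class drawn.

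Casp8, the initiator caspase of the death receptor complex, was found in lymphocytes and phagocytes of every library. It stood at 60.6, 49.0, 47.4 and 55.0 CPM in T cells, 100, 64.9, 55.7 and 67.5 in NK cells, 47.0, 40.9, 45.6 and 40.5 in B cells, and 95.4, 114, 90.4 and 105 in phagocytes. None of the 12 ratios in these 4 classes excluded 0, although that of ConA+Veh over Naïve in T cells, -0.31 (-0.61 to 0.01), did so under 4 alternatives, at -0.33 to -0.51. Neutrophils held 84.9 CPM in ConA+Veh, 38.1 (3 UMIs) in ConA+TCDD and 90.9 in ConA+FICZ. Within T cells, those with neither or both co-receptors were lower in ConA+TCDD than in ConA+Veh, at 35.7 against 59.0 CPM, a ratio of -0.72 (-1.17 to -0.29). Among T cells without Mki67 the ratio of ConA+TCDD over ConA+Veh was -0.49 (-0.88 to -0.11), in place of -0.05 (-0.27 to 0.17).

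Cflar, which makes the inhibitor of Caspase-8, was lower in T and B cells and higher in phagocytes of ConA+Veh than in those of Naïve. T cells held 56.3 CPM (46.0 to 68.2), 33.1 (29.4 to 37.2), 39.4 (34.7 to 44.6) and 39.3 (34.7 to 44.4), and B cells 50.8, 36.9, 38.7 and 38.6. The ratios of ConA+Veh over Naïve were -0.76 (-1.09 to -0.43) and -0.46 (-0.80 to -0.13). Both turned in UMIs per cell, to 0.84 in T cells and 0.77 in B cells, and the B cell value was 0.08 when averaged over cells. The same ratio included 0 in NK cells, -0.56 (-1.31 to 0.22), and in CD8 T cells, -0.53 (-1.10 to 0.09). Over ConA+Veh, T cells of ConA+TCDD and ConA+FICZ each gave 0.25 with an interval that reached 0, and under alternatives that excluded 0 the values were 0.26 to 0.50. Phagocytes held 50.5 (18 UMIs), 91.7, 98.9 and 87.5 CPM, and the ratio of ConA+Veh over Naïve was 0.86 (0.15 to 1.66). Neutrophils held 121, 89.0 and 185 CPM in the 3 ConA libraries, with 0.61 (0.02 to 1.24) for ConA+FICZ over ConA+Veh.

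Inhibitor and caspase transcripts were set against each other as Cflar UMIs per Casp8 UMI. This ratio counts RNA and not protein, and whether both genes were captured equally was not tested. It was 0.929, 0.676, 0.831 and 0.715 in T cells and 1.08, 0.901, 0.849 and 0.953 in B cells. T cells with neither or both co-receptors stood at 0.870, 0.651, 1.65 (1.21 to 2.26) and 0.846, so that ConA+TCDD was the only one of these 4 above 1 Cflar UMI per Casp8 UMI. Cflar itself was higher there, at 59.0 CPM against 38.4 in ConA+Veh, a ratio of 0.62 (0.20 to 1.04). CD8 T cells stood at 0.619 to 0.75. CD4 T cells, from 18 to 84 UMIs of each gene, stood at 1.5, 0.688, 0.405 (0.263 to 0.610) and 0.783. ConA+TCDD was thus the lowest library there, opposite to its place in T cells with neither or both co-receptors. Cells that met no class held 24 UMIs of each gene in Naïve. They stood at 1.27 (0.927 to 1.75) in ConA+Veh, 1.72 (1.27 to 2.36) in ConA+TCDD and 1.76 (1.14 to 2.77) in ConA+FICZ. A high ratio was therefore not limited to ConA+TCDD. Neutrophils of ConA+FICZ stood at 2.03 (1.47 to 2.84).

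**Figure D4:**
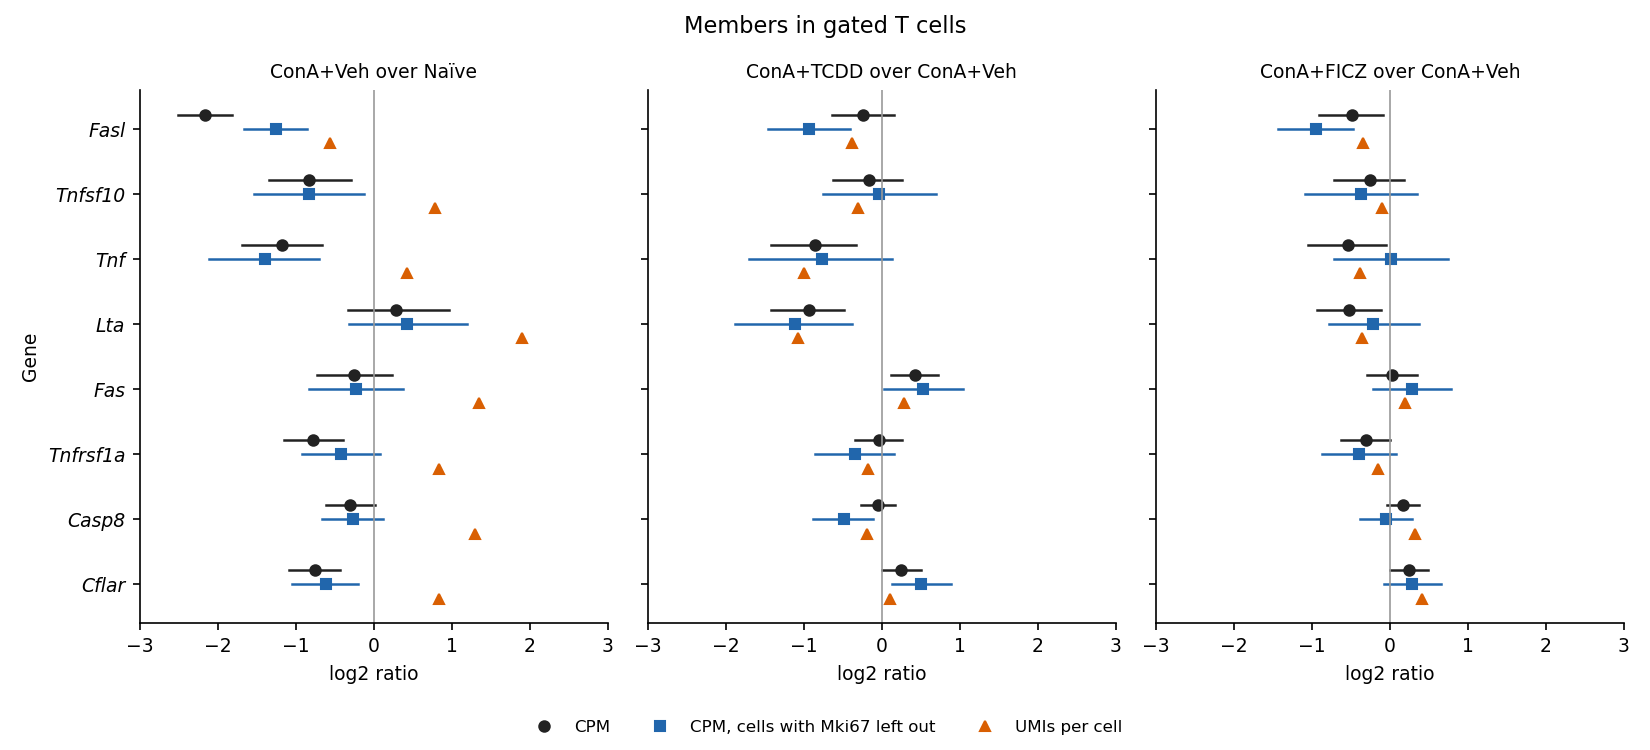
Log2 ratio of each of the 8 members in T cells (horizontal axis) in 3 panels, ConA+Veh over Naïve and then ConA+TCDD and ConA+FICZ each over ConA+Veh. Circles are ratios of CPM with 95% binomial intervals, squares leave out T cells with Mki67, and triangles give UMIs per cell with no interval. Fasl lies at -2.16 in the first panel, where several members change sides of 0 in UMIs per cell.

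The members were then counted against all genes. A gene entered such a count with at least 50 UMIs in both libraries together, and past 2-fold means a log2 ratio beyond 1 in either direction. For ConA+Veh over Naïve in T cells, 2 of 8 members (Fasl and Tnf, both lower) were past 2-fold, beside 21.6% of 8630 genes, whose median ratio was -0.12. The AhR ligand libraries differed less from ConA+Veh: 0 of 8 members were past 2-fold for ConA+TCDD, beside 1.22% of genes, and 0 of 8 for ConA+FICZ, beside 1.72%.
In NK cells 1 of 3 members that entered (Fasl, lower) was past 2-fold for ConA+Veh over Naïve, beside 16.6% of genes. The count was 0 of 4 for ConA+TCDD over ConA+Veh, beside 1.70%, and 0 of 4 for ConA+FICZ, beside 2.60%. In B cells 1 of 4 (Fas, higher) was past it for ConA+Veh over Naïve, beside 24.6% of genes with a median ratio of -0.25, and 0 of 3 for ConA+TCDD and ConA+FICZ over ConA+Veh, beside 2.04% and 2.02%. In phagocytes it was 0 of 4 for ConA+Veh over Naïve, beside 13.2%, and 0 of 4 for ConA+FICZ over ConA+Veh, beside 3.45%. Members with too few UMIs did not enter, among them Lta and Fas in NK cells, so these counts do not cover all 8 outside T cells.

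The other genes of the pathway were 43 ligands, receptors, adaptors, kinases, ubiquitin enzymes, regulators and caspases. In T cells 33 of them entered for ConA+Veh over Naïve, with a median of -0.36 beside -0.12 for all genes. Past 2-fold, 1 of the 33 was higher and 7 were lower, beside 8.63% and 13.0% of all genes. Among these 7, Ltb, the membrane partner of lymphotoxin alpha, stood at 184 against 631 CPM (-1.78, -1.89 to -1.67). The ubiquitin ligase gene Birc2, whose product restrains death signalling from TNF receptor 1, was at 24.6 against 62.3 CPM (-1.34, -1.68 to -1.0). None of 34 was past 2-fold in T cells for ConA+TCDD or for ConA+FICZ over ConA+Veh, beside 1.22% and 1.72% of all genes. The pathway medians were -0.09 and -0.10.
In B cells 1 of 28 was higher and 3 lower for ConA+Veh over Naïve, beside 7.60% and 17.0% of all genes. Ltb was among the 3 (-1.61, -1.73 to -1.50), and the pathway median was -0.43 beside -0.25 for all genes. NK cells had 0 higher and 2 lower of 11, Ltb (-1.24, -1.84 to -0.63) and Sharpin (-1.07, -1.78 to -0.35), with a median of -0.44 beside 0.02 for all genes. Of all genes there, 8.43% were higher and 8.18% lower. For ConA+TCDD over ConA+Veh, 0 of 14 in NK cells and 0 of 26 in B cells were past 2-fold, beside 1.70% and 2.04% of all genes. For ConA+FICZ over ConA+Veh it was 1 of 12 in NK cells and 0 of 28 in B cells, beside 2.60% and 2.02% of all genes. The 1 gene was the deubiquitinase Cyld (-1.37, -2.38 to -0.46). Phagocytes had 1 lower of 23 for ConA+Veh over Naïve, the death receptor Tnfrsf21 (-1.65, -2.33 to -0.96), beside 13.2% of all genes past 2-fold. For ConA+FICZ over ConA+Veh they had 1 higher of 25, Ripk1, the kinase of the TNF receptor 1 complex (1.0, 0.46 to 1.56), beside 3.45% of all genes.

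Across the 21 pairs of class and library with enough cells, over 8 classes, the gene most like Fasl in its log2 level was Ifng, the interferon of the same lymphocytes, with a Pearson r of 0.99 among 10482 genes ranked. The next was Klrc2, an NK receptor gene, at 0.98. Those nearest to the other members were Slamf1 for Lta (0.94), Ets2 for Tnf (0.94), Actn1 for Fas (0.85) and Hid1 for Tnfsf10 (0.83). The points share libraries and depth, so these values only describe which genes followed the same classes.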

How the data were processed

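Droplet single-cell RNA-seq was analysed from 4 libraries of mouse liver mononuclear cells, 1 per condition. The authors made libraries with the 10x Genomics 5′ kit and used bcl2fastq and Cell Ranger with mm10, and the deposited values are raw UMI counts per gene and cell, with no normalization. Groups came from the library titles. The 8 members, the marker lists and the pathway list were chosen with earlier results of these data known. Cells were classed by how many distinct markers of each list had a UMI, with minimum numbers set after looking at marker distributions. Cells meeting more than 1 class (32 to 114 per library) were kept apart as possible doublets, and no doublet caller was run. Counts were summed per class, and ratios needed 30 cells in both libraries, a minimum chosen after seeing the data. With 1 library per condition there is no test. Intervals are exact (Poisson for CPM, Clopper-Pearson for shares, binomial for ratios) and cover counting error only. A 0 is read as up to 3 counts. All members are described. Other pathway genes were named when past 2-fold with an interval excluding 0, at most 5 per comparison, and the genes nearest to a member by Pearson r of log2(CPM + 10). One pathway gene that met this rule is not reported here. Scripts were tested on simulated data. Alternatives were other gates, Leiden clusters, other denominators, averages over cells, cell filters and thinning. The alternatives without Mki67 cells and without the top cell, and all alternatives for 6 further class and gene pairs, were added after seeing the data. Clusters used leidenalg 0.10.2, scikit-learn 1.9.0 and igraph 0.11.9. Tables and intervals used pandas 2.3.3, numpy 2.4.6 and scipy 1.17.1 in Python 3.11.15, and plots used matplotlib 3.10.9.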

Additional observations from a re-analysis of the deposited data

Results flagged for a closer look

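Some members differed between the same libraries in opposite directions in different classes, and the difference between classes was not tested. For ConA+FICZ over ConA+Veh, Tnf had a log2 ratio of CPM of 0.70 (0.23 to 1.21) in neutrophils and -0.54 (-1.05 to -0.05) in T cells. For ConA+Veh over Naïve, Cflar had 0.86 (0.15 to 1.66) in mononuclear phagocytes, -0.76 (-1.09 to -0.43) in T cells and -0.46 (-0.80 to -0.13) in B cells.

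Cells outside the single classes also held members at levels that differed from the comparison library. Among cells that met no class, ConA+TCDD exceeded ConA+Veh for Fas with 0.78 (0.19 to 1.42), and ConA+FICZ exceeded ConA+Veh for Tnf with 1.14 (0.14 to 2.18). The summed neutrophil marker level in those cells was 97.1 CPM in Naïve, 283 in ConA+Veh, 2235 in ConA+TCDD and 1210 in ConA+FICZ, and its part in these values was not tested. In cells that met more than 1 class, the Tnf ratio of ConA+Veh over Naïve was 1.67 (0.24 to 3.59), and ConA+TCDD in turn exceeded ConA+Veh with 1.11 (0.59 to 1.63). The 17 ConA+TCDD cells with both phagocyte and granulocyte progenitor markers held 61 of the 66 Tnf UMIs of that group. In the same kind of cells Tnfrsf1a had 0.98 (0.33 to 1.70) for ConA+Veh over Naïve.

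Other members were lower in these cells. Where no class was met, ConA+Veh lay below Naïve for Tnf (-2.86, -3.88 to -1.90), Fasl (-1.20, -1.88 to -0.49) and Tnfrsf1a (-1.17, -1.85 to -0.46), and ConA+TCDD lay below ConA+Veh for Fasl (-0.76, -1.36 to -0.16) and Casp8 (-0.78, -1.27 to -0.28). Where more than 1 class was met, ConA+FICZ lay below ConA+Veh for Tnf (-0.73, -1.37 to -0.12).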

How the results depend on the processing

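No paired analysis was possible because each condition had 1 library, and no replicate could be left out. Of 473 log2 ratios recomputed, 442 stayed within the interval of the reported value and 31 did not. The sign changed in 34, of which 7 had a reported interval that excluded 0. Of the 369 with an interval of their own, 162 belonged to reported values that excluded 0, and 20 of these came to include 0, while 24 others came to exclude it. Such losses numbered 5 under Leiden classes, 4 with 1 more marker per class, 4 without Mki67 cells, 2 each under cell quality filters, without the top 2% of cells and without the top cell, 1 without T or NK cells lacking Cd52 and 0 with another denominator, and each is given beside its result in the report. Tnf, Tnfrsf1a and Cflar in phagocytes, ConA+Veh over Naïve, gave no Leiden value, since 21 cells of Naïve were in such clusters. Averaging over cells gave -1.24 for Fasl in T cells, ConA+Veh over Naïve, -0.66 for Fasl in T cells, ConA+TCDD over ConA+Veh, -0.60 for Fasl in NK cells, ConA+FICZ over ConA+Veh, -0.27 for Tnfsf10 in T cells, ConA+Veh over Naïve, -0.28 for Tnf in T cells, ConA+TCDD over ConA+Veh, 2.11 for Fas in B cells and 0.08 for Cflar in B cells, both ConA+Veh over Naïve, and 0.83 for Tnfrsf1a in phagocytes, ConA+FICZ over ConA+Veh. UMIs per cell, ConA+Veh over Naïve, gave in T cells -0.56 for Fasl, 0.78 for Tnfsf10, 0.43 for Tnf, 1.90 for Lta, 1.35 for Fas, 0.83 for Tnfrsf1a, 1.3 for Casp8 and 0.84 for Cflar, and elsewhere -0.25 for Fasl in NK cells, 2.36 for Fas and 0.77 for Cflar in B cells and -0.03 for Tnfrsf1a in phagocytes. For Lta in B cells the same reading also left the reported interval, with a smaller difference. Values in UMIs per cell carry the higher UMI number per cell after ConA by construction. Without Mki67 cells, T cells gave -1.25, -0.93 and -0.95 for Fasl, taking ConA+Veh over Naïve and then ConA+TCDD and ConA+FICZ over ConA+Veh, 0.01 for Tnf in ConA+FICZ over ConA+Veh, -0.49 and -0.05 for Casp8 in ConA+TCDD and ConA+FICZ over ConA+Veh, and 0.50 for Cflar in ConA+TCDD over ConA+Veh. The cause was not tested.

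The share of cells with a Fasl UMI, from Naïve through ConA+Veh and ConA+TCDD to ConA+FICZ, was 3.43%, 1.84%, 0.648% and 1.16% of T cells thinned to 500 UMIs and 18.0%, 13.4%, 11.7% and 11.8% unthinned. In NK cells it was 14.2%, 9.71%, 12.4% and 8.77% thinned to 500 UMIs and 43.3%, 42.7%, 45.0% and 32.2% unthinned. With at least 20 UMIs instead of 50, other pathway genes past 2-fold numbered 1 in place of 0 in T cells for ConA+TCDD and for ConA+FICZ over ConA+Veh and in B cells for ConA+FICZ over ConA+Veh. In NK cells they numbered 5 in place of 2 for ConA+Veh over Naïve and 2 in place of 1 for ConA+FICZ over ConA+Veh, and in phagocytes 2 in place of 1 for ConA+Veh over Naïve. For that comparison they numbered 9 in place of 8 in T cells and 5 in place of 4 in B cells. Of all genes, 9.35% were then higher and 15.8% lower in T cells, and 9.03% and 10.2% in phagocytes. For ConA+TCDD over ConA+Veh, T cells had 1.16% higher and 1.77% lower. For ConA+FICZ over ConA+Veh they had 1.40% and 2.38%, and NK cells 2.67% and 4.73%. With at least 20 UMIs, members past 2-fold were 2 of 5 in NK cells and 2 of 5 in B cells for ConA+Veh over Naïve. Of all genes, 9.38% were higher and 13.2% lower in NK cells, and 8.53% and 19.3% in B cells. In B cells 1 of 5, Lta, was past it for ConA+TCDD and for ConA+FICZ over ConA+Veh. Of all B cell genes, 1.45% were higher and 2.72% lower for ConA+TCDD, and 2.22% and 1.93% for ConA+FICZ. Members with under 20 UMIs in a class of a single library, such as Tnfsf10, Tnf and Fas in NK cells, allow only wide intervals.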

Other observations

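Granulocyte progenitor markers identified 9 cells in ConA+TCDD outside every other class, and these held 50 Tnf UMIs (538 CPM, 399 to 709), of which 40 were in 1 cell. The 13 such cells of ConA+Veh held 6 Tnf UMIs (31.6 CPM). Cells with both progenitor and phagocyte markers held Tnf at 40.2 CPM (25.2 to 60.9) in 25 cells of ConA+Veh, 124 (94.8 to 159) in 17 cells of ConA+TCDD and 27.6 (14.3 to 48.3) in 18 cells of ConA+FICZ. Their median UMI numbers, 20391, 29665 and 24236, were several times those of T cells.

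Few T cells carried UMIs of both ligands of a pair, and each ligand alone was detected in a minority of T cells. Fasl and Tnfsf10 UMIs were found together in 14, 14, 12 and 13 T cells, from Naïve through ConA+Veh and ConA+TCDD to ConA+FICZ, and Fasl and Tnf in 10, 12, 10 and 5. Tnf and Lta, which are neighbouring genes, were found together in 2, 10, 2 and 5 T cells.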
